A study of Mus musculus with 4 samples.

Results

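Imprinted genes are transcribed mainly from the copy inherited from 1 parent, because that copy and its partner carry different DNA methylation at a control region set in the germ line. A list of 43 mouse imprinted genes was followed through 4 RNA libraries, and 42 of the 43 symbols have a row among the 78028 rows of each count table; Zrsr1 is not analysed here. The 42 genes lie in 17 domains, of which 8 hold a single member. By textbook knowledge 19 are classed as maternally expressed, 22 as paternally expressed and Gnas as both through different promoters. Whether each class holds in these cells was not tested. Many of these genes act in opposite ways on growth before birth. Igf2 and Peg3 promote growth, while H19, Igf2r, Grb10, Cdkn1c and Phlda2 restrain it, and H19, Igf2 and Dlk1 are known for high levels in the fetal liver that decline after birth.

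All 4 libraries belong to a single group. They were made from E14TG2a, a line of mouse embryonic stem cells, and are labelled hepatocyte-like cells derived by A-HIC, a name the labels do not expand. The labels describe the samples as generated independently; they are called cultures here and numbered as the replicates are, from library 1 to library 4. No untreated or undifferentiated group is analysed here, so levels and their spread between cultures are described and no treatment effect can be given. All cultures come from 1 cell line, and the counts do not separate the parental alleles, so nothing here shows from which allele a transcript came.

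Library totals were 37797816, 40154964, 29518642 and 40124479 counts. Levels are given as TPM (counts scaled for gene length and library size), the only scale here on which genes are compared with each other. The label hepatocyte-like was checked against marker genes. Of 15 hepatocyte markers 1 was at 1 TPM or more in every library, Cyp2e1 and G6pc1 had 0 counts in all 4, and Alb stood at 0.455, 7.19, 0 and 0.492 TPM. All 14 pluripotency markers and all 13 parietal endoderm markers passed that level, among them Pou5f1 at 540 ± 99.3 TPM (SD, n = 4) and Col4a1 at 1503 ± 906 TPM. The label is thus not borne out by the hepatocyte markers, and the results are those of libraries so labelled.

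Most of the imprinted genes in this list were transcribed. At 1 TPM or more in all 4 libraries 36 of 42 members were expressed, against 30.3% of all rows with a length and 63.5% of protein-coding rows. The members' median of mean levels was 29.3 TPM, against 7.61 TPM for protein-coding rows and 21.9 TPM for all expressed genes. Mean levels were above 100 TPM for 12 members, from 10 to 100 TPM for 13, from 1 to 10 TPM for 12 and below 1 TPM for 5. No member had 3 counts or fewer in every library, as was the case for 52.0% of all rows with a length. Together the members took 0.538%, 0.868%, 0.573% and 0.694% of the counts of libraries 1 to 4. Members classed as maternally expressed had a median of 47.2 TPM with 17 of 19 expressed. Those classed as paternally expressed had 8.94 TPM with 18 of 22 expressed, and the difference was not tested.

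**Figure D1:**
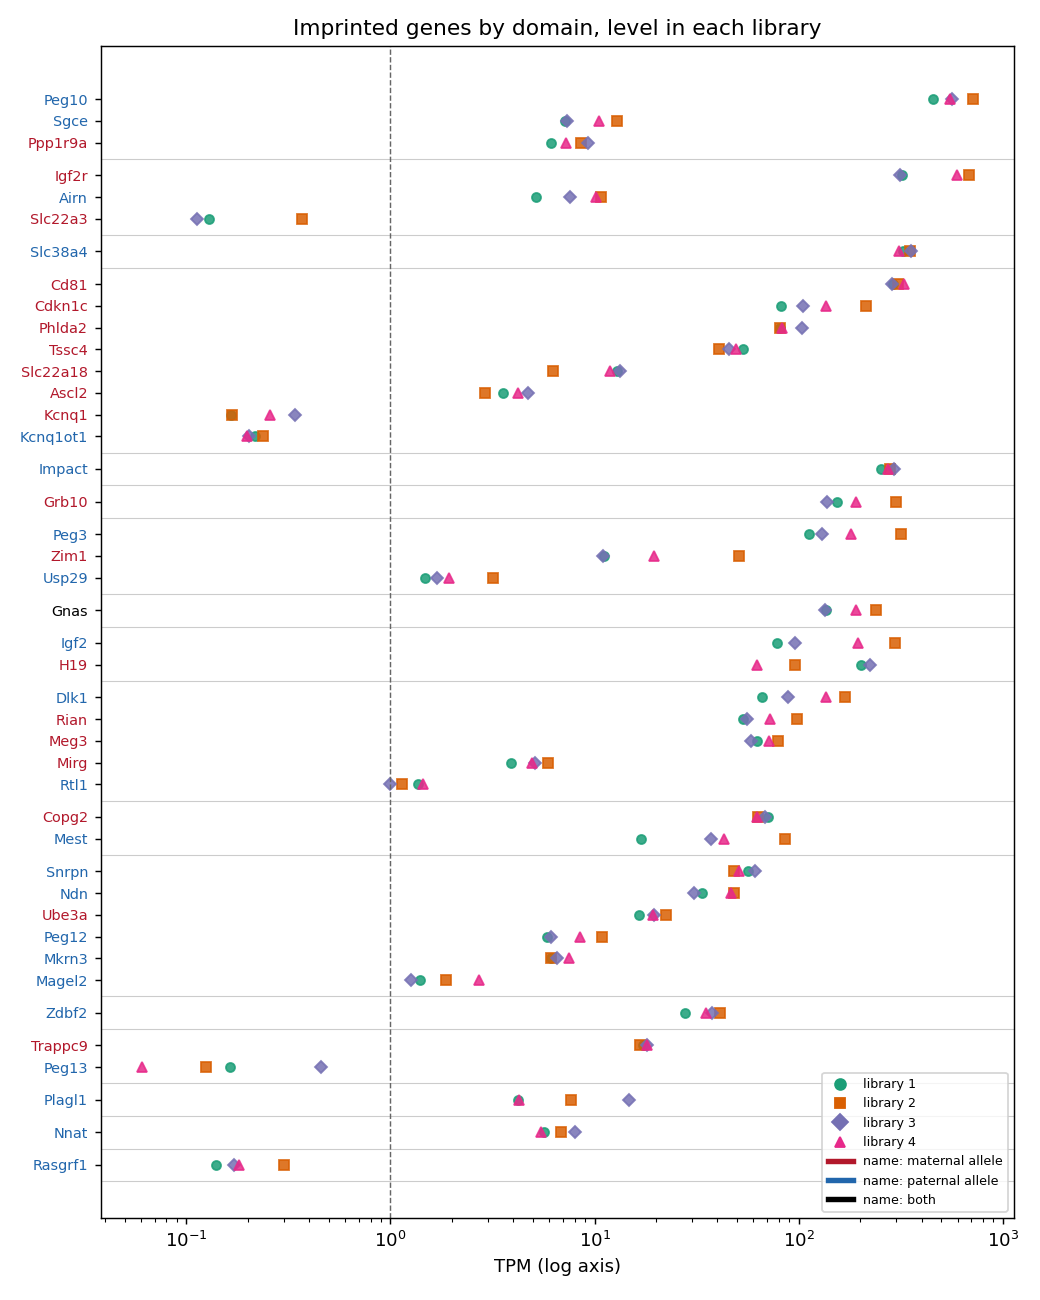
TPM of each of the 42 imprinted genes in libraries 1 to 4 (horizontal log axis), grouped by domain. Gene names are coloured by textbook allele class, and a dashed line marks 1 TPM. The 0 of Slc22a3 in library 4 cannot be drawn on a log axis. Peg10, Igf2r and Slc38a4 lie furthest right, with means of 570, 480 and 335 TPM, and library 2 is the rightmost point for 22 of the 39 genes that passed the count filter.

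The Igf2-H19 domain had the clearest reversal between cultures. Igf2, the fetal growth factor, stood at 78.3, 296, 96.4 and 196 TPM in libraries 1 to 4 (167 ± 100, SD, n = 4). H19, the long noncoding RNA read from the other allele of the same control region, stood at 201, 96.2, 223 and 62.8 TPM (146 ± 78.3). Igf2 was high in libraries 2 and 4, where H19 was low, and the order was the opposite in libraries 1 and 3. The log2 ratio of H19 to Igf2, computed from TPM + 0.1, was 1.36, -1.62, 1.21 and -1.64, so its sign was shared by 2 libraries on either side and its mean of -0.17 ± 1.68 describes none of them. Its range of 3.00 was the widest of the 23 pairs compared. The antisense row Igf2os had 475, 2006, 411 and 1049 counts, or 10.3, 11.7, 9.46 and 9.0 for every 100 counts of Igf2. In the GENCODE annotation 64.5% of the Igf2 exon bases are shared with another gene, the same-strand Gm49394 or Igf2os, and these libraries keep no strand, so the Igf2 level is uncertain in size.

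H19 also contains the hairpin of miR-675, and Mest, described further on, holds that of miR-335. The mature forms are shown because they are the known small RNA products of these transcripts, with the seed (bases 2 to 8 from the 5′ end) in capitals, from RefSeq on GRCm38.p6. The 4 seeds all differ.
mmu-miR-675-5p: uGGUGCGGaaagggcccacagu
mmu-miR-675-3p: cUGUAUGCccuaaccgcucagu
mmu-miR-335-5p: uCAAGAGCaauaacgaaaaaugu
mmu-miR-335-3p: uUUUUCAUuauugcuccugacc
Poly-A selection does not capture mature miRNAs, and the Mir675 row had 0 counts in all 4 libraries, while Mir335 had 4, 0, 0 and 0. These rows give no measure of the small RNAs.

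In the Igf2r-Airn domain the receptor was the most abundant member. Igf2r, the receptor that carries IGF2 to the lysosome, stood at 320, 686, 313 and 599 TPM (480 ± 191, SD, n = 4). Libraries 2 and 4 were the highest for Igf2r, as for Igf2. Igf2 stayed below its receptor in 4 of 4 libraries, by a log2 ratio of -1.64 ± 0.34 in TPM. That gap is uncertain in size, since 64.5% of the Igf2 exon bases are shared with another gene and none of those of Igf2r. How far reads from the shared bases change the gap or the order was not tested. Airn, the paternal noncoding RNA that silences Igf2r on its own chromosome, stood at 5.19, 10.8, 7.55 and 10.2 TPM, and the log2 ratio of Igf2r to Airn was 5.78 ± 0.29. The Airn level rests on a spliced exon length of 3597 bases, while much of Airn is known to remain unspliced. Slc22a3, an organic cation transporter imprinted in placenta, had 6, 17, 4 and 0 counts. The 0 in library 4 allows up to 3 counts, or 0.0748 CPM (counts scaled for library size only), and 0.150 CPM if both read ends were counted; this limit covers counting error only.

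The Dlk1-Meg3 domain pairs paternal protein-coding genes with maternal noncoding RNAs. Dlk1, a transmembrane protein that marks hepatoblasts in the fetal liver, stood at 66.1, 168, 88.7 and 136 TPM (115 ± 46.0, SD, n = 4). Meg3, a noncoding RNA, stood at 62.2, 79.2, 58.5 and 71.4 TPM (67.8 ± 9.31), and Rian, a host of small nucleolar RNAs, at 53.2, 98.1, 56.0 and 72.6 TPM (70.0 ± 20.6). All 3 were highest in library 2 and second highest in library 4, but Dlk1 covered a range of 2.54-fold and Meg3 one of 1.35-fold. Meg3 lay below Dlk1 in TPM in 4 of 4 libraries (log2 ratio -0.68 ± 0.44) and did not separate from Rian (-0.01 ± 0.22). The order of Meg3 and Dlk1 rests on annotated exon lengths of 18089 and 5657 bases. On log2(CPM + 0.1), which is not scaled for length, the mean ratio was 1.0, with Meg3 above Dlk1. Mirg, a microRNA host, stood at 3.92, 5.93, 5.10 and 4.94 TPM, below Meg3 by a log2 ratio of 3.75 ± 0.20. Rtl1, a retrotransposon-derived gene needed in placenta, stood at 1.37, 1.15, 0.999 and 1.45 TPM. Its value in library 3 lies just under the threshold of 1 TPM, and that value alone keeps Rtl1 out of the expressed members. The Meg3 promoter is shown with its TGCCGC element; this and the other promoter stretches come from RefSeq on GRCm38.p6, 5′ to 3′ on the gene's strand.
Meg3 (chr12:109540779-109540838, plus strand): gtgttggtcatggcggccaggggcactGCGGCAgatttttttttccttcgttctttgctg

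In the Peg3 domain all 3 genes were highest in library 2. Peg3, a zinc finger protein, stood at 112, 316, 129 and 180 TPM (184 ± 92.3, SD, n = 4). Usp29, a ubiquitin protease read in the opposite direction from the neighbouring start, stood at 1.48, 3.18, 1.70 and 1.94 TPM (2.07 ± 0.757). Zim1, a maternally expressed zinc finger gene, stood at 11.1, 51.1, 11 and 19.5 TPM (23.2 ± 19, SD, n = 4), with a mean of 13.9 TPM without library 2. All 3 genes were lower in libraries 1 and 3 than in library 4, and library 2 lay apart above them. The log2 ratio of Peg3 to Usp29 held at 6.34 ± 0.22, while that of Peg3 to Zim1 was 3.17 ± 0.39 with its lowest value, 2.63, in library 2. The annotated starts of Peg3 and Usp29 face away from each other with 163 bases between them. That stretch is printed because both genes were read from its ends at very unequal TPM, and it held no match to the 3 motifs searched and 5 CpG.
Peg3-Usp29 (chr7:6730420-6730582, minus strand): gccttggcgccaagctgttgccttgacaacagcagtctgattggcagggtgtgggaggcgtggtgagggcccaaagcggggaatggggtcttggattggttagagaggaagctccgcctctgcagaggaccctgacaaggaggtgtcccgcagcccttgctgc
The Zim1 promoter held the TGCCGC element (capitals, here as its reverse complement GCGGCA).
Zim1 (chr7:6696433-6696492, minus strand): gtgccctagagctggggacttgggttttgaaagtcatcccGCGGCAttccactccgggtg

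The Peg10-Sgce domain held the most abundant member. Peg10, a protein derived from a retrotransposon and required for the placenta, stood at 454, 711, 566 and 550 TPM (570 ± 106, SD, n = 4). Sgce, a sarcoglycan that is read away from a start beside that of Peg10, stood at 7.15, 12.8, 7.30 and 10.6 TPM, and Ppp1r9a, an actin-binding neurabin, at 6.10, 8.62, 9.33 and 7.23 TPM. Peg10 exceeded Sgce by a log2 ratio of 5.92 ± 0.25 and Ppp1r9a by 6.17 ± 0.19, in 4 of 4 libraries each. Library 2 was the highest for Peg10 and Sgce, and library 3 for Ppp1r9a.

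Mest and Copg2 lie side by side and behaved differently. Mest, a paternal hydrolase of mesoderm, stood at 16.9, 86.2, 37.4 and 43 TPM (45.9 ± 29.1, SD, n = 4), the widest range of the 39 genes that passed the count filter at 5.11-fold. Copg2, a subunit of the COPI vesicle coat, stood at 70.9, 62.9, 68.5 and 62.2 TPM (66.1 ± 4.27). Mest was below Copg2 in 3 libraries and above it in library 2, with log2 ratios of -2.06, 0.45, -0.87 and -0.53. Their 3′ ends overlap on opposite strands over 912 bases, 23.1% of the Mest exon bases and 17.8% of those of Copg2, and reads from that stretch cannot be told apart. The Mest promoter held 2 TGCCGC elements and 14 CpG in 250 bases, and the Copg2 promoter held 1 such element.
Mest (chr6:30737800-30738049, plus strand): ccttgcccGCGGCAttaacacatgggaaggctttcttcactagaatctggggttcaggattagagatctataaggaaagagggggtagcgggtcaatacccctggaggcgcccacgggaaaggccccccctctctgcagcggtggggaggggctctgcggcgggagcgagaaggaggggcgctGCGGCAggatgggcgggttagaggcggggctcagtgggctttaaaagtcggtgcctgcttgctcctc
Copg2 (chr6:30896878-30896937, minus strand): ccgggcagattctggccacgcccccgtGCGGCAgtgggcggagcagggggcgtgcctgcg

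The Kcnq1 domain has the most members, 8, of which 6 were expressed. Cd81, a tetraspanin of most cell surfaces, stood at 289, 306, 286 and 328 TPM (302 ± 19.1, SD, n = 4). Cdkn1c, the cell cycle inhibitor p57, stood at 82.2, 214, 105 and 137 TPM (134 ± 57.5). It shares 30.7% of its exon bases with the opposite-strand Gm44732, which had 0 counts in each library, so its level is uncertain in size. Phlda2, which limits placental growth, stood at 80.9, 80.7, 104 and 82.7 TPM (87.2 ± 11.5). Cdkn1c followed the order of Igf2 over the libraries, Cd81 was nearly level, and Phlda2 was higher in library 3 than in the others. Per library the log2 ratio of Cdkn1c to Phlda2 was 0.02, 1.40, 0.00 and 0.72. Tssc4 stood at 53.2, 40.5, 45.8 and 49.2 TPM. Ascl2, a trophoblast transcription factor, stood at 3.58, 2.91, 4.69 and 4.20 TPM. Slc22a18, a membrane transporter, stood at 12.9, 6.26, 13.3 and 11.9 TPM. All 3 were lowest in library 2. Kcnq1, a potassium channel, had 7, 7, 11 and 11 counts. Kcnq1ot1, the paternal RNA that silences this domain, had 208, 224, 149 and 192 counts, which over an annotated length of 93092 bases come to 0.214 ± 0.0173 TPM. Its place below 1 TPM rests on that length, since 1 CPM was exceeded in every library.

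The Snrpn-Ube3a domain, whose loss in humans causes Prader-Willi and Angelman syndromes, had all 6 members expressed. Snrpn, a spliceosome protein of brain, stood at 56.5, 48.5, 61.2 and 51.0 TPM (54.3 ± 5.70, SD, n = 4). Ndn, a growth suppressor of neurons, stood at 33.5, 48.0, 30.8 and 46.6 TPM (39.7 ± 8.83), and Ube3a, a ubiquitin ligase, at 16.5, 22.4, 19.5 and 19.3 TPM (19.4 ± 2.41). Snrpn was lowest in library 2, while Ndn was highest there and next in library 4. Peg12 stood at 5.83, 10.9, 6.11 and 8.47 TPM and Mkrn3, a ring finger protein that restrains puberty, at 6.12, 6.15, 6.58 and 7.5 TPM. Magel2, a partner of ubiquitin ligases, stood at 1.40, 1.87, 1.26 and 2.72 TPM. Peg12 was highest in library 2, and Mkrn3 and Magel2 in library 4. Snrpn exceeded Ube3a by a log2 ratio of 1.48 ± 0.29 in TPM and Ndn exceeded Magel2 by 4.41 ± 0.25, in 4 of 4 libraries each. The order of Snrpn and Ube3a rests on annotated exon lengths of 2159 and 20626 bases, and on log2(CPM + 0.1) the mean ratio was -1.77. Snrpn shares 34.1% of its exon bases with other rows, among them Snurf, which had 0 counts, and Gm38393, which had 430, 526, 402 and 474. Ube3a shares 27.3% with rows on the opposite strand, Snhg14 among them, so both levels are uncertain in size. The RefSeq start of Snrpn with a TGCCGC element is shown as 30 bases.
Snrpn (chr7:60005184-60005213, minus strand): gacccctgcattGCGGCAaaaatgtgcgca

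Among the members that stand alone in their domains, Slc38a4 and Impact were nearly level over the cultures. Slc38a4, an amino acid transporter of hepatocytes and placenta, stood at 323, 350, 355 and 310 TPM (335 ± 21.3, SD, n = 4). Impact, an inhibitor of the stress kinase Gcn2, stood at 254, 279, 293 and 275 TPM (275 ± 16.3). Their highest and lowest cultures lay 1.14-fold and 1.16-fold apart. Grb10, an adaptor that dampens insulin and IGF receptor signals, stood at 155, 301, 137 and 191 TPM (196 ± 73.5), and Gnas, the stimulatory G protein subunit, at 137, 240, 134 and 191 TPM (176 ± 50.5). Both were highest in library 2 and next in library 4. The Gnas row sums transcripts from several imprinted promoters, and 22.0% of its exon bases are shared with opposite-strand genes.

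Plagl1, a zinc finger regulator of other imprinted genes, was highest in library 3. It stood at 4.20, 7.67, 14.7 and 4.26 TPM (7.71 ± 4.94, SD, n = 4), with libraries 1 and 4 nearly equal and lowest. Zdbf2 stood at 35.4 ± 5.55 TPM and Nnat, a small membrane protein of neurons, at 6.49 ± 1.17 TPM. Trappc9, a vesicle tethering protein, stood at 17.3, 16.6, 18.1 and 18.0 TPM, the narrowest range of the 39 tested members at 1.09-fold. Peg13, a noncoding RNA within Trappc9, had 8, 6, 17 and 3 counts, and Rasgrf1, a Ras exchange factor of brain, 16, 34, 15 and 21. Those counts leave Peg13 and Rasgrf1 below 1 TPM in every library. The promoters with a motif among the most expressed member of each domain are shown here or beside their gene; those of Mest, Zim1, Meg3 and Peg3-Usp29 were chosen after the values were seen. For Plagl1 and Zdbf2 the 250 bases before the start are given, for Slc38a4 60 bases, and for Igf2, Grb10 and Nnat, where the match lies after the start, 30 bases.
Plagl1 (chr10:13090582-13090831, plus strand): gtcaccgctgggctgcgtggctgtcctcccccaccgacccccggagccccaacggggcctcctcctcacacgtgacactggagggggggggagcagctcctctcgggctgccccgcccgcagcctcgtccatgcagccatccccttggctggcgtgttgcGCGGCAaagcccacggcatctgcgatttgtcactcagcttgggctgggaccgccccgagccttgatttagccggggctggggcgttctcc
Zdbf2 (chr1:63200108-63200357, plus strand): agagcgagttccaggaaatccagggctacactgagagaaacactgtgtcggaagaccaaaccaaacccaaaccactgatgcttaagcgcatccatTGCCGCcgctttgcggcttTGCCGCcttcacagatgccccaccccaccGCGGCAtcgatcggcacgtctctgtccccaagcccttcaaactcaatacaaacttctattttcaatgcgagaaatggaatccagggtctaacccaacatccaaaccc
Slc38a4 (chr15:97020499-97020558, minus strand): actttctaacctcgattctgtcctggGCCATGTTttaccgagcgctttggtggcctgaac
Igf2 (chr7:142661224-142661253, minus strand): tacggtgtcccaGCGGCAgcacagattttg
Grb10 (chr11:12037379-12037408, minus strand): gggtgcggggagGCGGCAggaagggaaggg
Nnat (chr2:157560093-157560122, plus strand): gccaccggggctGCGGCAttgcgcccagca

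Capitals in these stretches mark TGCCGC, the element that the zinc finger protein ZFP57 binds when it is methylated, on either strand, except in Slc38a4, where they mark the YY1 motif AANATGGC on the opposite strand. The RefSeq promoter table used here was matched for 33 of the 42 members with 50 start windows, each covering 250 bases before and 50 after a start. H19, Peg10, Sgce, Cdkn1c, Impact, Kcnq1, Trappc9, Peg13 and Rtl1 were not matched. TGCCGC was found on either strand in 11 of the 50 windows (22.0%) and in 11.6% of all 32851 windows. AANATGGC was found in 3 windows (6.0%) against 6.05% of all, in Ube3a, Mkrn3 and Slc38a4. A core motif of CTCF was found in no member window and in 0.0365% of all. TGCCGC and AANATGGC matches overlapped in 0.113% of all windows and in none of the members. Member windows held a median of 13.5 CpG against 7 for all; TGCCGC itself holds a CpG, and the part of CpG content in its share was not tested. Several windows of Mest, Gnas and Igf2 overlap or share a gene, so windows are not independent, and a match is a description and not a bound site.

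Among the cultures, library 2 had the highest level of most variable members. On CPM scaled by TMM factors, library 2 was highest for 22 of the 39 members that passed the count filter, against 29.2% of all genes tested, and library 1 was lowest for 18, against 28.6%. Library 2 was lowest for 7 (30.3% of all genes), and library 1 was highest for 2, Copg2 and Tssc4 (29.7%). Library 3 was highest for 10 (21.2%) and lowest for 9 (20.7%), and library 4 was highest for 5 (19.9%) and lowest for 5 (20.4%). Of the members tested that are classed as paternally expressed 13 of 21 were highest in library 2. Of those classed as maternally expressed 8 of 17 were, so the order was not limited to a single textbook class. The 7 members lowest in library 2 were Phlda2, Slc22a18, Ascl2, Tssc4, Snrpn, Mkrn3 and Trappc9, the first 4 of them from the Kcnq1 domain.

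**Figure D2:**
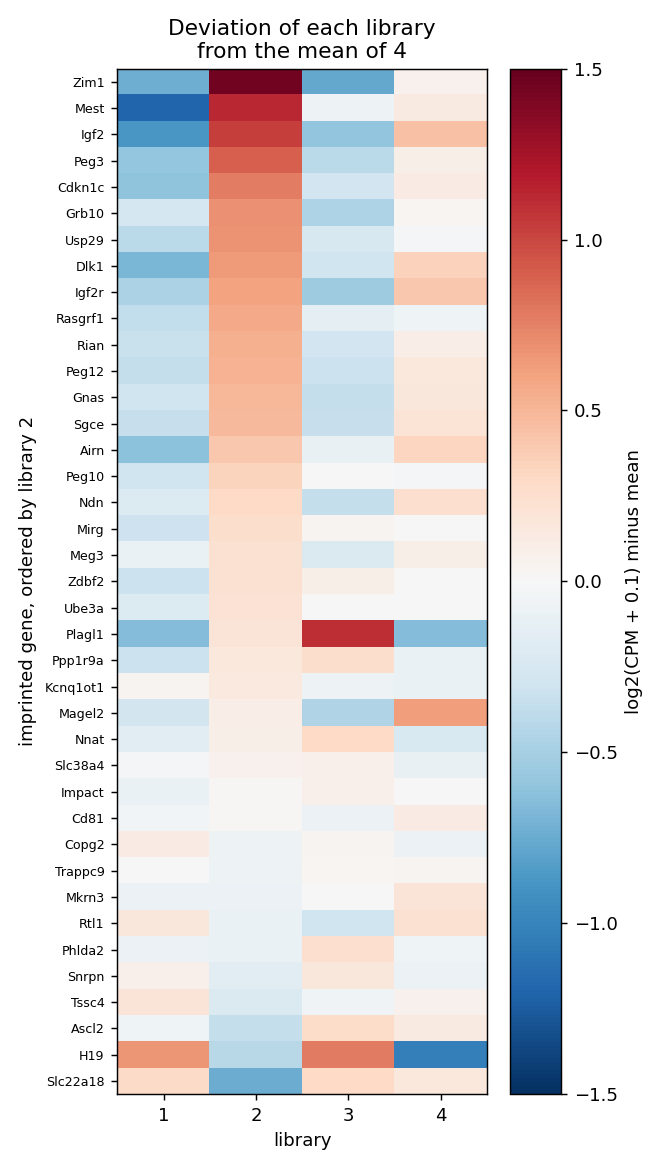
Each row is 1 of the 39 imprinted genes that passed the count filter and each column a library; colour gives log2(CPM + 0.1), TMM-scaled, minus the gene's mean over the 4 libraries, with red above and blue below. Library 2 is red for Zim1, Mest, Igf2, Peg3 and Cdkn1c, H19 is red in libraries 1 and 3, and Plagl1 is red in library 3.

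Each library was then set against the other 3 in a fit over all 17398 genes (edgeR quasi-likelihood test, Benjamini-Hochberg adjustment). The single library is assumed to vary like the rest. Where another library resembles the single one, as libraries 2 and 4 do for Igf2, it widens the spread of the other 3. A lack of calls in these fits therefore cannot show that the cultures were alike. No member passed an adjusted p of 0.05 in any of the 4 comparisons, and neither did any other gene (0.0% called in each). At an unadjusted p under 0.05, 12 of 39 members differed in library 2 (7.38% of all genes), 4 in library 1 (5.32%), 1 in library 3 (1.57%) and 1 in library 4 (1.55%). The members of library 2 were Igf2, Rian, Peg3, Usp29, Zim1, Peg10, Sgce, Mest, Cdkn1c, Grb10 and Gnas, which were higher, and Slc22a18, which was lower. Zim1 had the largest difference, 1.88 on the log2 scale (edgeR, unadjusted p = 0.000633, adjusted p = 0.612), followed by Mest at 1.41 and Igf2 at 1.26 (adjusted p = 0.626 each). In library 1 they were Airn, Dlk1, Mest and Zdbf2, all lower, in library 3 Plagl1 (a log2 difference of 1.43, edgeR adjusted p = 1) and in library 4 H19 (a log2 difference of -1.47, edgeR adjusted p = 1). The Wald test of DESeq2 called 3 members in library 2 (Peg3, Zim1 and Grb10), where it called 0.397% of all genes. It called no member in libraries 1, 3 and 4, where 0.046%, 0.0172% and 0.0172% of genes were called. When genes of low counts were kept in the fit, edgeR called 7 members in library 1 (0.836% of all genes) and 11 in library 2 (1.19%), and none in libraries 3 (0.00255%) and 4 (0.0153%). Of the 12 edgeR fits that left out a library, 8 called no gene at all. Leaving out library 4 gave 17 member calls in library 2 (14.4% of all genes), and leaving out library 3 gave 16 in library 1 (12.4%). Leaving out library 1 gave 14 in library 3 (7.35%), and leaving out library 2 gave 12 in library 4 (7.8%).

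Spread was also described without setting 1 library apart. The biological coefficient of variation (edgeR's estimate of relative spread between cultures beyond counting noise) had a median of 0.226 over the 39 members and 0.185 over all genes tested. It was above the 90th percentile of all genes for 5 of 39 members, H19, Igf2, Mest, Plagl1 and Zim1, close to the background of 10%. Without library 2 the count was 3 (H19, Magel2 and Plagl1). Since this coefficient is larger for genes of low level, each member was also placed among the 1000 genes of nearest level, a comparison chosen after the files were seen. There 13 of 39 members lay above the 90th percentile and 12 above the 95th: H19, Igf2, Igf2r, Rian, Dlk1, Peg3, Zim1, Mest, Plagl1, Cdkn1c, Grb10 and Gnas. The coefficient was 0.496 for Zim1, 0.431 for Mest, 0.413 for Plagl1, 0.407 for Igf2 and 0.389 for H19, and it was 0.106 to 0.108 for Impact, Slc38a4 and Cd81. The highest library was at least 2-fold over the lowest for 15 of 39 members, against 18.5% of all genes tested.

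**Figure D3:**
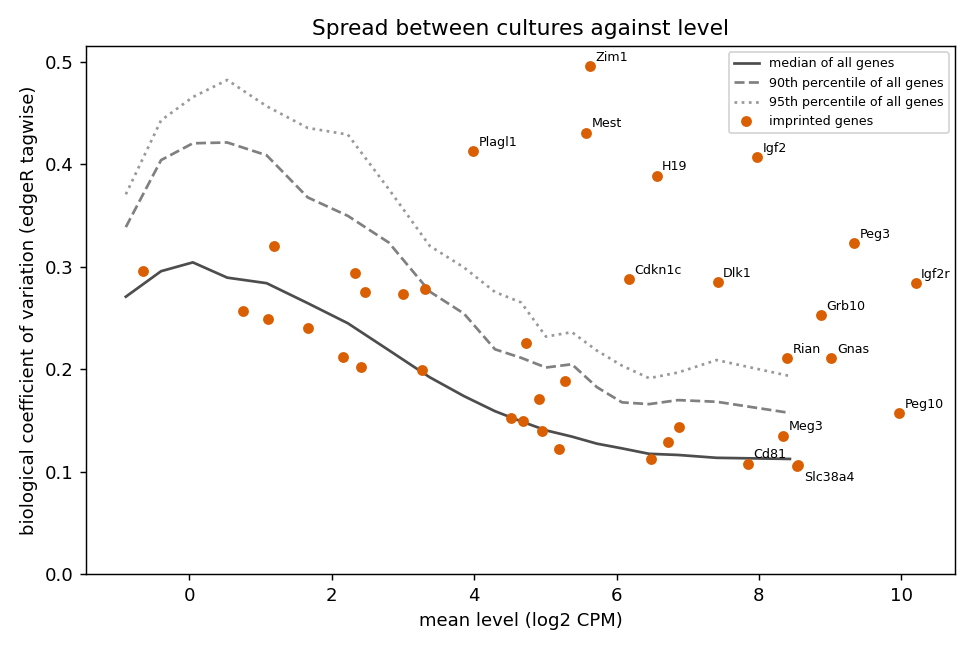
Biological coefficient of variation of the 39 imprinted genes that passed the count filter (orange points) against mean level in log2 CPM, with lines for the median, 90th and 95th percentile of all 17398 genes in 20 bins of level. Zim1, Mest, Plagl1, Igf2 and H19 lie at 0.389 to 0.496, above the 95th percentile at their level, while Impact, Slc38a4 and Cd81 lie below the median.

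Marker genes of other cell types differed between the libraries too. The 13 parietal endoderm markers summed to 3807, 11527, 4602 and 8888 TPM in libraries 1 to 4, with all 13 lowest in library 1 and 11 of 13 highest in library 2. The 10 fibroblast markers summed to 1712, 3735, 1489 and 2551 TPM, with 9 of 10 highest in library 2, and none of either list was at 0. The 14 pluripotency markers summed to 8903, 5070, 8173 and 6092 TPM, with 11 of 14 lowest in library 2 and none highest in libraries 2 or 4. Igf2, Igf2r, Dlk1, Peg3, Cdkn1c and Grb10 had the library order of the endoderm and fibroblast sums at the high end, with library 2 first and library 4 second. H19 was high in the libraries where the pluripotency sum was high. Visceral endoderm markers summed to 77.2, 194, 96.5 and 142 TPM and hepatocyte markers to 10, 58.7, 9.21 and 25.4 TPM. Trophoblast markers summed to 120 to 124 TPM, mostly Tfap2c and Hand1, and neural markers to 131 to 153 TPM, mostly Tubb3. A level sum does not mean level markers. Eomes stood at 11.7, 3.60, 7.85 and 3.77 TPM and Plac1 at 9.30, 26.3, 13.4 and 14.5 TPM. Of the 9 trophoblast markers 4, 2, 1 and 2 were highest in libraries 1 to 4. The part of these cell types in the members' levels was not tested, and in bulk RNA fewer cells of a type cannot be told apart from less RNA per cell.

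**Figure D4:**
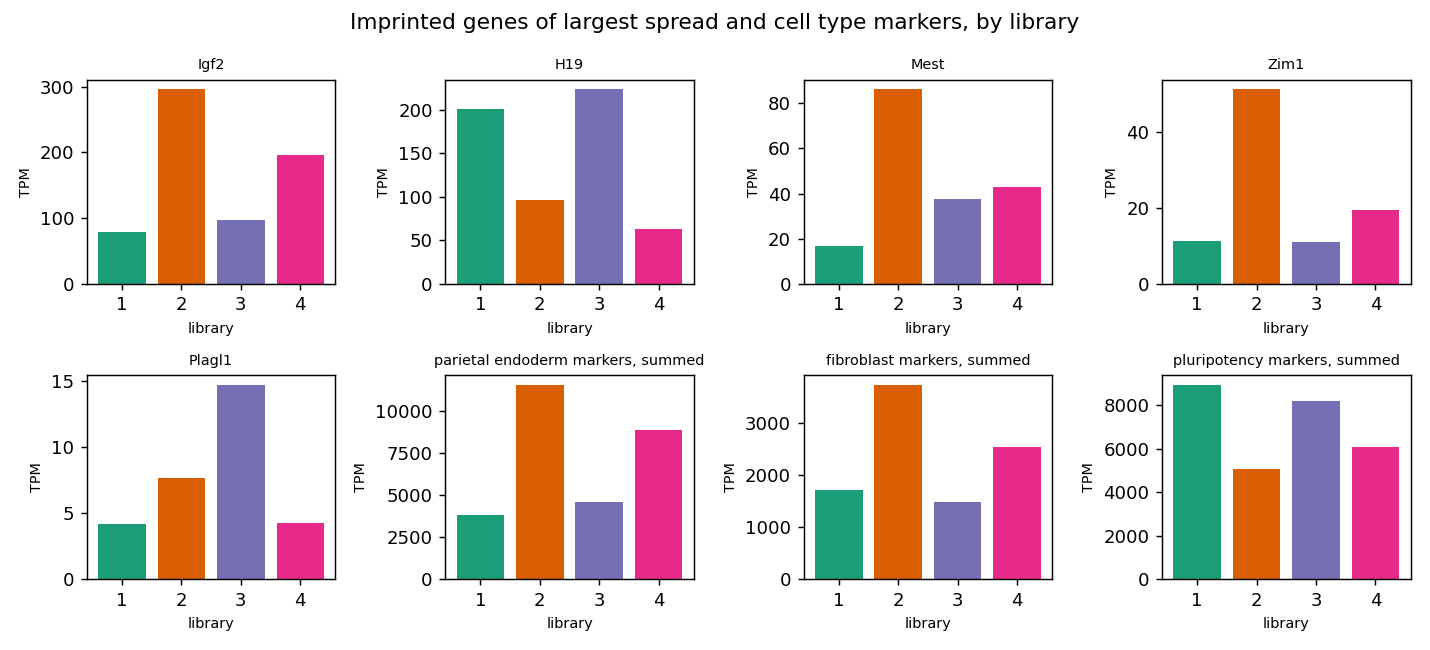
Bars give TPM in libraries 1 to 4 for the 5 imprinted genes of largest spread and for the summed markers of 3 cell types, each panel with its own axis from 0. Igf2, Mest and Zim1 peak in library 2 like the parietal endoderm (11527 TPM) and fibroblast (3735 TPM) sums, whereas H19 and the pluripotency sum are high in libraries 1 and 3 and Plagl1 peaks in library 3.

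The ratios of 23 pairs of neighbours or partners were compared over the libraries. In 18 pairs all 4 libraries had the same sign, which a wide gap in level is enough to give. A small SD can mean that both genes moved together or that neither varied much. Pairs of other genes were not compared. The SD of the log2 ratio was between 0.19 and 0.25 for 7 pairs, Peg3 over Usp29, Peg10 over Sgce, Peg10 over Ppp1r9a, Meg3 over Mirg, Meg3 over Rian, Cd81 over Tssc4 and Ndn over Magel2. It was above 1 for H19 over Igf2 (1.68), Mest over Copg2 (1.04) and Igf2r over Slc22a3 (1.03), the last of which rests on the 0 counts of Slc22a3 in library 4. A sign test over 4 libraries cannot reach a p under 0.05, so none is given.

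**Figure D5:**
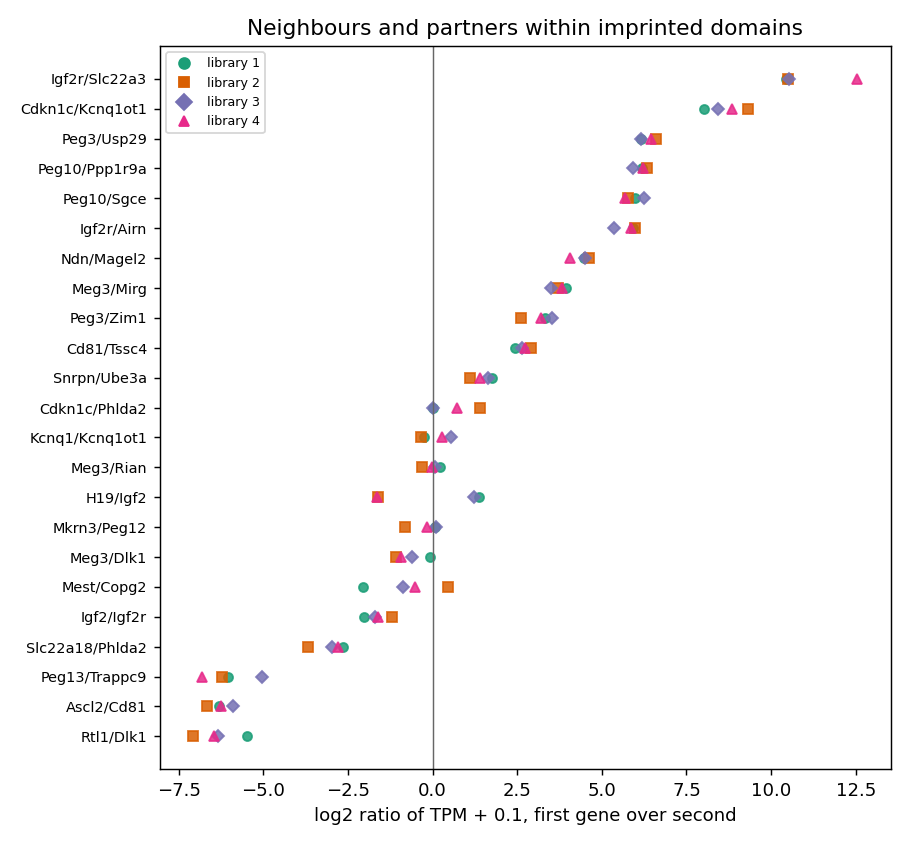
Log2 ratio of TPM + 0.1 of the first gene over the second in each library (points) for 23 pairs within imprinted domains or of ligand and receptor, ordered by mean. H19 over Igf2 lies at 1.36 and 1.21 in libraries 1 and 3 and at -1.62 and -1.64 in libraries 2 and 4, on opposite sides of 0.

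Genes that set, keep or erase imprints were then listed, beside the background of 63.5% of protein-coding rows expressed. Of 15 maintenance genes 14 were expressed. Trim28, the corepressor recruited by ZFP57, stood at 924 ± 74.6 TPM (SD, n = 4), Uhrf1, which brings DNMT1 to replicated DNA, at 312 ± 21.8 TPM and Zfp57 at 334, 202, 323 and 237 TPM (274 ± 64.8). Zfp57 had the library order of the pluripotency sum, highest in library 1 and lowest in library 2. The lowest were Smchd1 at 22.6 ± 2.87 TPM, Arid4b at 16.6 ± 2.20 TPM and Nlrp2, an oocyte gene, at 0.0138 TPM. Of 12 genes of imprint setting and erasure 11 were expressed, led by Dnmt3l, a cofactor of the de novo methyltransferases, at 171 ± 28.8 TPM, the demethylase Tet1 at 141 ± 7.58 TPM and Dnmt3b at 128 ± 9.63 TPM. Tet3, Prdm1 and Ctcfl were lowest at 9.81, 4.16 and 1.04 TPM. As the edgeR fits with all libraries called no gene of any kind, they cannot tell these lists from other genes. Calls from the other fits are not given for these lists.

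Of 35 other imprinted genes or hosted miRNA rows 22 were expressed, against 63.5% of protein-coding rows and 30.3% of all rows with a length. Their median level was 6.27 TPM, against 29.3 TPM for the 42 members and 7.61 TPM for protein-coding rows. Nap1l4, a histone chaperone beside the Kcnq1 domain, stood at 258 ± 6.51 TPM, Gab1, a signalling adaptor, at 170 ± 11.3 TPM and Jade1 at 157 ± 11.7 TPM. Dlx5, Mir675 and Mir127 had 0 counts in all 4 libraries. Around the Igf2 axis 13 of 14 genes were expressed, against the same 63.5% of protein-coding rows. Igfbp2 and Igfbp4, secreted proteins that bind IGFs, stood at 325 ± 64.9 and 293 ± 113 TPM, and Igf2bp1, which binds the Igf2 mRNA, at 155 ± 3.30 TPM. Igf1r, the signalling receptor of IGF2 (chosen after its values were seen), stood at 9.02, 18.3, 10.1 and 14.9 TPM, with the order of Igf2 over the libraries. Irs1, Igf1 and Igfbp1 were lowest at 9.39, 2.64 and 0.851 TPM.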

How the data were processed

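Poly-A RNA from 4 cultures was sequenced from both ends without strand information, per the labels. The authors deposited raw counts per gene, made with STAR and featureCounts on GRCm39 (mm39) per the submitters' processing notes (versions, annotation and options not given in the sources used here). Even numbers made up 60.0% to 62.6% of counts between 1 and 8, and each total exceeds the approximate number of read pairs named in the labels, so both ends may have been counted. TPM used union exon lengths from GENCODE M21 (GRCm38), matched for 48781 rows (48148 by symbol, 5 by gene ID, 628 by synonym) that held 98.7% to 98.9% of counts. No gene coordinates are given, and promoter coordinates are RefSeq GRCm38.p6. Log ratios used TPM + 0.1.

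Tests used edgeR 4.0.16 (filterByExpr, TMM, quasi-likelihood, Benjamini-Hochberg over 17398 genes) and DESeq2 1.42.0 as an alternative. They ran in R 4.3.3 with Python 3.11.15, numpy 2.4.6, pandas 2.3.3 and matplotlib 3.10.9. The edgeR test was checked on simulated counts in which genes were changed in a single library. That check does not cover libraries that resemble each other. Of the 42 members 39 passed the filter; Slc22a3, Kcnq1 and Peg13 did not. All members are named, with library values for the 14 highest, the 8 most dispersed, paired genes and any with 0 counts, and the 3 highest and lowest of other lists. Members and lists were chosen with earlier results of these data known. Alternatives were other thresholds, pseudocounts, scalings, filters and leaving out each library. With all 4 libraries in the fit, each p-value sets the difference of a single library against the spread estimated from the other 3.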

Additional observations from a re-analysis of the deposited data

Results flagged for a closer look

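Among 42 member levels and 23 ratios tested for a library far from the other 3, 2 of 65 passed the limit. Chance alone gives about 1 in 20, so 2 is no more than that many tests would give by chance. Phlda2 in library 3 stood at 104 TPM, with the other libraries between 80.7 and 82.7 TPM. The log2 ratio of Igf2r to Slc22a3 in library 4 was 12.55, with the others between 10.45 and 10.53; this value rests on 0 counts of Slc22a3 and so on the pseudocount.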

How the results depend on the processing

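The number of expressed members, 36, lay between 31 and 38 under the alternatives, and the number not detected was 0 in each. Rescaling TPM by TMM or DESeq2 factors moved none of the 42 mean levels by 1 SD. Those factors lay between 0.960 and 1.03 and could move a mean only slightly. Leaving out a library can move a mean of 4 by only part of its SD; it moved 3 by over 1.5 times, Zim1 to 13.9 and Slc22a3 to 0.0804 TPM without library 2 and Peg13 to 0.117 TPM without library 3. Of the 23 pair ratios, 7 moved by 1 SD or more on log2(TPM + 1). On log2(CPM + 0.1), which is not scaled for length, 18 did, and 3 means changed sign: Meg3 over Dlk1 to 1.00, Snrpn over Ube3a to -1.77 and Kcnq1 over Kcnq1ot1 to -3.95. Leaving out a library turned the mean of H19 over Igf2 to 0.31 or 0.32 (library 2 or 4), Meg3 over Rian to 0.09 (library 2) and Kcnq1 over Kcnq1ot1 to -0.11 or -0.01 (library 3 or 4), pairs whose libraries differ in sign.

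The number of members of high spread was 5 of 39, where 1740 of 17398 genes were as high. With no filter on low counts it was 0 of 42 (2850 of 39251 genes), and by the SD of log2(CPM + 1) 16 of 39 (1740 of 17398 genes). Among genes of like level (added after seeing the data) it was 13, and 3 to 5 when a library was left out, each beside a background of about 10%. Members called for a single library numbered 0 in each edgeR comparison. They were 7 in library 1 (0.836% of all genes called) and 11 in library 2 (1.19%) with no filter, and 3 in library 2 by DESeq2's Wald test (0.397%). Leaving out another library gave 0 to 16 for library 1, 0 to 17 for library 2, 0 to 14 for library 3 and 0 to 12 for library 4, and the fits with calls called 7.35% to 14.4% of all genes. Every fit that left out a library estimates the spread from only 2 libraries, whether it gave calls or none. The fits with calls set library 1 or 3 against libraries 2 and 4, or library 2 or 4 against libraries 1 and 3. The cause of each change was not tested. No paired analysis was possible because the series has a single group. Depth limits Slc22a3, Kcnq1 and Peg13, at 17 counts or fewer in every library.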
